A study of Mus musculus with 32 samples.

Results

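The genes described here handle calcium in the sarcoplasmic reticulum, the calcium store of muscle cells. The 10 genes are the release channel Ryr2, the junction proteins Trdn and Jph2, the calcium buffers Casq2, Casq1 and Hrc, the pumps Atp2a2 and Atp2a1, and the pump inhibitors Pln and Sln. They were chosen by name, with earlier results of these data known, out of 19938 named genes on the array. Each is represented by its brightest probe set. All 10 passed the filter on low signal, which left 15219 genes to be tested. Atria were taken from 16 mice of 4 genotypes, with 4 animals of each genotype, and the left and the right atrium of an animal went to separate arrays, 32 in all. The genotypes were dnPI3K-Mst1 (both transgenes), Mst1 (mammalian sterile 20-like kinase 1), dnPI3K (a dominant negative form of phosphoinositide 3-kinase) and Ntg (no transgene). All 4 genotypes shared a mixed C57BL/6 and FVB/N strain background, a standard chow diet and a 12 h light and dark cycle. The age and sex of the mice and the promoters that drive the transgenes are not given in the sources used here, and neither is any treatment.

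In a heart muscle cell, calcium that enters through the surface membrane opens the ryanodine receptor Ryr2, which releases far more calcium from the sarcoplasmic reticulum and starts contraction. Triadin (Trdn) and junctophilin (Jph2) hold the release site together, calsequestrin binds calcium inside the store, and the pump SERCA returns calcium to the store so that the muscle relaxes. Phospholamban (Pln) and sarcolipin (Sln) are small membrane proteins that slow the pump, and Sln is typical of atrial rather than ventricular muscle.

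Values are log2 probe set signals as deposited, so a difference of 1 is a doubling, and unless an atrium is named a value is the mean of an animal's left and right atrium. The array medians lay between 5.51 and 5.68, and 4 arrays stood somewhat apart, with a mean correlation with the other arrays of 0.949 to 0.969 (left atria of Mst1 1466, dnPI3K 3241 and dnPI3K 1507, right atrium of Ntg 1662). Stk4, the gene of Mst1, averaged 8.33 in dnPI3K-Mst1, 8.25 in Mst1, 7.61 in dnPI3K and 7.54 in Ntg, so its level was high where the labels place the Mst1 transgene. Pik3ca, which encodes a catalytic subunit of phosphoinositide 3-kinase, averaged 10.27 in dnPI3K-Mst1, 9.73 in Mst1, 10.04 in dnPI3K and 9.11 in Ntg, higher than in Ntg in all 3 transgenic genotypes (adjusted p of 1.2e-06, 0.0014 and 0.000282 in that order, limma). The labels do not say which subunit the dnPI3K transgene encodes. The 13 cardiac myocyte markers examined were all above the filter, with a mean level of 11.2 to 11.7 in each animal. Nothing in the labels says how the animals were related, and the number of animals limits the precision. Since whole atria were used, fewer cells of a type and less RNA per cell cannot be told apart.

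Each call of the 10 genes against Ntg was toward a lower level in the transgenic atria, and none was called higher. Jph2 passed against Ntg in no genotype. Pln in dnPI3K (0.12) and Casq2 and Trdn in Mst1 (0.04 each) lay slightly above Ntg without a call. In dnPI3K-Mst1 9 of 10 were lower than in Ntg at an adjusted p under 0.05 (limma, Benjamini-Hochberg over all genes), while 14.2% of all genes tested were called lower there, 16.4% higher and 30.6% in either direction. In Mst1 6 of 10 were lower, where 14.2% of all genes were called lower, 12.6% higher and 26.8% in either direction. In dnPI3K 4 of 10 were lower, where 2.75% of all genes were called lower, 1.29% higher and 4.05% in either direction. The median change of the 10 genes against Ntg was -0.48 in dnPI3K-Mst1, -0.38 in Mst1 and -0.28 in dnPI3K, while the median of all genes tested was 0.02 in the first of these comparisons and -0.00 in the others. All 3 comparisons use the same Ntg animals. Apart from Casq1 and Atp2a1, the 10 genes were among the brighter ones on the array, at percentiles of 89.1 to 100 among named genes. The shares cover tested genes of every level, and shares among genes of like level were not computed. Hrc, Casq1 and Atp2a1 were called lower in all 3 transgenic genotypes, and they also had the largest changes.

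**Figure D1:**
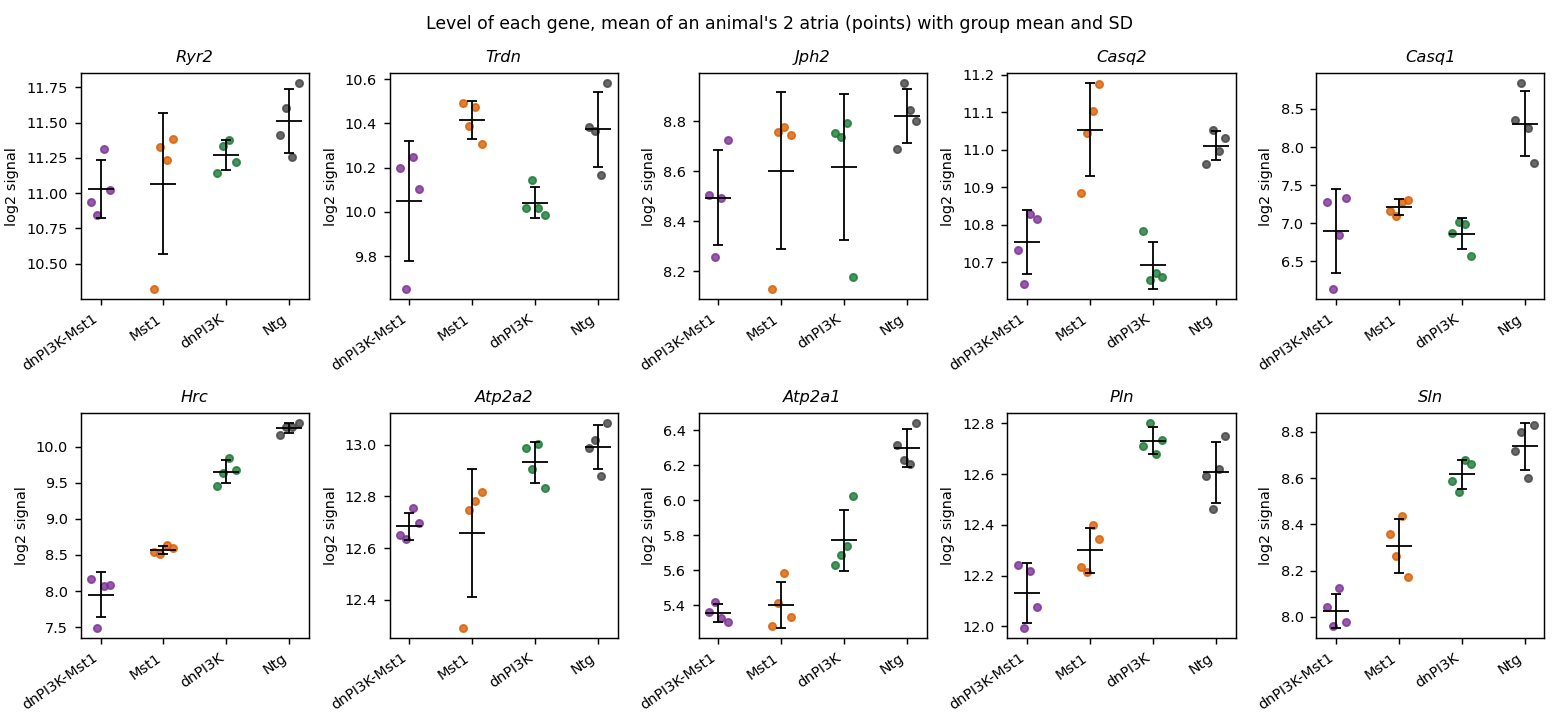
Level of each of the 10 genes (log2 signal) in the 4 genotypes, with a point for the mean of an animal's atria and bars for the group mean and SD of 4 animals. Hrc falls in steps, with 7.49 to 8.17 in dnPI3K-Mst1, 8.51 to 8.64 in Mst1, 9.45 to 9.84 in dnPI3K and 10.16 to 10.33 in Ntg.

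The release channel gene Ryr2 was lower in dnPI3K-Mst1 atria, by a margin close to the limit of the test. It read 10.94, 10.84, 11.31 and 11.02 in the dnPI3K-Mst1 animals, 10.32, 11.32, 11.24 and 11.38 in the Mst1 animals, 11.14, 11.34, 11.38 and 11.22 in the dnPI3K animals, and 11.41, 11.61, 11.25 and 11.78 in the Ntg animals. The dnPI3K-Mst1 and Ntg animals overlapped, and Mst1 animal 1466 lay far below the others of its genotype. The change in dnPI3K-Mst1 against Ntg was -0.48 ± 0.17 (SE, n = 4 each; adjusted p = 0.0426 with limma), and leaving out any of 7 animals ended the call (dnPI3K-Mst1 1509, 1647 and 1650, dnPI3K 1648, Ntg 1301, 1657 and 1834), with adjusted p between 0.0512 and 0.133, as did quantile normalization (0.0617) and no filter on low genes (0.0513). In Mst1 against Ntg the change was -0.45 (95% interval -0.81 to -0.08, adjusted p = 0.0672), and it was -0.20 without Mst1 1466 (adjusted p = 0.21). It was called without Mst1 1838, Mst1 1840 or Ntg 1662 (adjusted p between 0.0345 and 0.0484) and when all 32 arrays were fitted with the animal as a block (adjusted p = 0.018). In dnPI3K it was -0.24 (interval -0.61 to 0.12), and Ryr2 passed no test between transgenic genotypes.

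Triadin, which anchors calsequestrin to the release channel, was called lower in dnPI3K-Mst1, and a difference of like size in dnPI3K did not pass. Trdn read 10.20, 9.65, 10.25 and 10.10 in the dnPI3K-Mst1 animals, 10.49, 10.39, 10.48 and 10.31 in the Mst1 animals, 10.02, 10.14, 10.02 and 9.98 in the dnPI3K animals, and 10.39, 10.36, 10.16 and 10.58 in the Ntg animals. All dnPI3K animals lay below all Ntg animals and all Mst1 animals, while 2 of the dnPI3K-Mst1 animals lay above the lowest Ntg animal. Trdn changed by -0.32 ± 0.11 in dnPI3K-Mst1 against Ntg (adjusted p = 0.0316), and the difference of -0.33 ± 0.11 in dnPI3K did not pass (adjusted p = 0.105, interval -0.56 to -0.10). Without any of dnPI3K-Mst1 1647, Ntg 1301, Ntg 1657 or Ntg 1834 the dnPI3K-Mst1 change was not called (adjusted p between 0.0565 and 0.12), at -0.19 without 1647, and the dnPI3K change was called without dnPI3K-Mst1 1647 (adjusted p = 0.0238). Mst1 was higher than dnPI3K by 0.37 ± 0.11 (adjusted p = 0.0188, against 11.8% of all genes called higher there), a call lost without Mst1 1839 (adjusted p = 0.0537), dnPI3K 3241 (adjusted p = 0.0502) or the 4 animals whose arrays stand apart (adjusted p = 0.138). Against Ntg, Mst1 differed by 0.04 (interval -0.19 to 0.27).

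Trdn is covered by 19 probe sets, which lets the direction be compared between probe sets, and 16 of them lay above the filter. In dnPI3K-Mst1 15 of 16 were lower than in Ntg, with changes of -0.74 to 0.04 and a median of -0.24. In Mst1 15 of 16 were higher, from -0.20 to 0.39 with a median of 0.14, and in dnPI3K all 16 were lower, from -0.80 to -0.21 with a median of -0.33. The probe sets read the same RNA samples and are not independent of each other. The mean of all 19 probe sets, also those below the filter, was used in place of the brightest as an alternative. The dnPI3K-Mst1 change was then -0.26 and was not called (adjusted p = 0.341), and Mst1 was higher than dnPI3K by 0.58 (adjusted p = 0.0319).

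**Figure D2:**
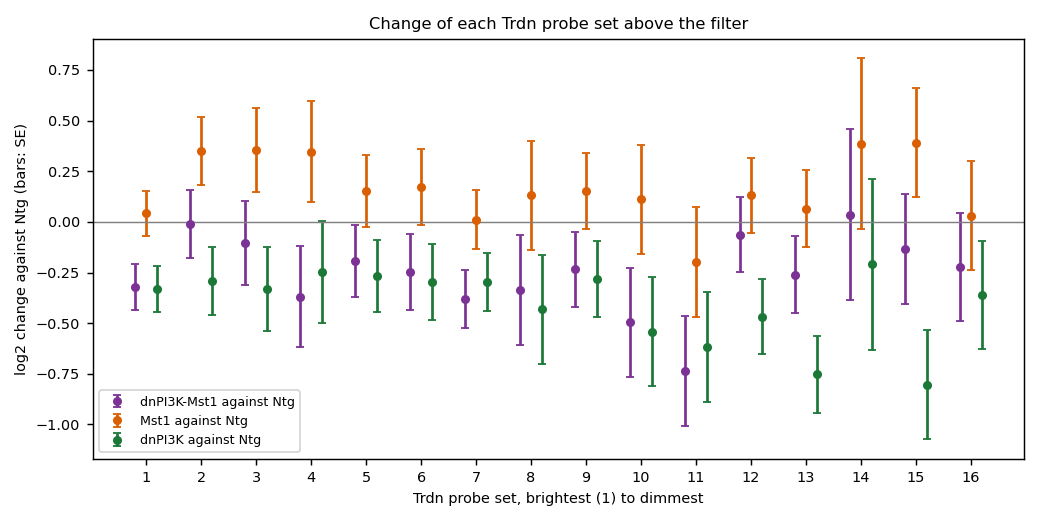
Change against Ntg (log2, bars SE of 4 against 4 animals) of the 16 Trdn probe sets above the filter, from the brightest at 1 to the dimmest at 16, in dnPI3K-Mst1, Mst1 and dnPI3K. The dnPI3K changes lie between -0.80 and -0.21 and the Mst1 changes between -0.20 and 0.39, with dnPI3K-Mst1 between -0.74 and 0.04.

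Jph2, which ties the sarcoplasmic reticulum to the surface membrane, passed no test between genotypes. The animals ranged from 8.26 to 8.72 in dnPI3K-Mst1, 8.13 to 8.78 in Mst1, 8.18 to 8.79 in dnPI3K and 8.69 to 8.95 in Ntg. The groups overlapped in every pairing, and the lowest values in Mst1 and dnPI3K came from single animals, 1466 and 3241, whose left arrays are among those standing apart. Its difference from Ntg was -0.33 in dnPI3K-Mst1 (interval -0.63 to -0.02, adjusted p = 0.103), -0.22 in Mst1 (interval -0.53 to 0.09) and -0.21 in dnPI3K (interval -0.51 to 0.10). Leaving out Mst1 1466 brought the dnPI3K-Mst1 change past the threshold (-0.33, adjusted p = 0.0362), and both probe sets of Jph2 were lower in all 3 transgenic genotypes.

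Of the calcium buffers, Hrc and Casq1 gave the largest differences from Ntg among the genes described here, while those of Casq2 were smaller. Calsequestrin is known in a cardiac form, Casq2, which is the main calcium buffer of the heart's store, and a form typical of fast skeletal muscle, Casq1. Both were lower in the genotypes that carry dnPI3K, and Casq1 was lower in Mst1 as well. Casq2 read 10.73, 10.64, 10.83 and 10.81 in the dnPI3K-Mst1 animals, 10.88, 11.05, 11.10 and 11.18 in the Mst1 animals, 10.78, 10.65, 10.67 and 10.66 in the dnPI3K animals, and 10.96, 11.05, 10.996 and 11.03 in the Ntg animals. All 8 animals with dnPI3K lay below all 8 animals without it. The change against Ntg was -0.26 ± 0.07 in dnPI3K-Mst1 (adjusted p = 0.0103) and -0.32 ± 0.07 in dnPI3K (adjusted p = 0.0153), while in Mst1 it was 0.04 (interval -0.11 to 0.19). The dnPI3K change was -0.44 on arrays labelled left (adjusted p = 0.0871) and -0.20 on arrays labelled right (adjusted p = 0.404), called on neither alone. Here and for the genes below, a single label mixes atria in Ntg and Mst1 by the marker Bmp10, as described further on. Casq2 was also lower in dnPI3K-Mst1 than in Mst1, by -0.30 ± 0.07 (adjusted p = 0.0248), where 0.848% of all genes were called lower and 3.5% in either direction. That call was lost without any of Mst1 1838, 1839 and 1840 or dnPI3K-Mst1 1509 and 1647 (adjusted p between 0.057 and 0.0895). Mst1 was higher than dnPI3K by 0.36 ± 0.07 (adjusted p = 0.00105).

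Casq1 was lower than in Ntg by more than 1 log2 unit in every transgenic genotype. It read 7.28, 6.14, 6.85 and 7.34 in the dnPI3K-Mst1 animals, 7.16, 7.09, 7.28 and 7.31 in the Mst1 animals, 6.87, 7.02, 6.99 and 6.58 in the dnPI3K animals, and 8.36, 8.83, 8.25 and 7.79 in the Ntg animals. Every transgenic animal lay below every Ntg animal. Against Ntg Casq1 changed by -1.40 ± 0.21 in dnPI3K-Mst1 (2.65-fold lower, adjusted p = 3.92e-05), -1.10 ± 0.21 in Mst1 (2.14-fold lower, adjusted p = 0.0006) and -1.44 ± 0.21 in dnPI3K (2.72-fold lower, adjusted p = 0.000402). The dnPI3K change was -1.01 on arrays labelled left, where it was not called (adjusted p = 0.0708), and -1.87 on arrays labelled right (adjusted p = 0.00031). The transgenic genotypes did not pass a test against each other, with differences of -0.31 for dnPI3K-Mst1 against Mst1 (interval -0.75 to 0.14), 0.04 for dnPI3K-Mst1 against dnPI3K (interval -0.41 to 0.49) and 0.35 for Mst1 against dnPI3K (interval -0.10 to 0.79). On arrays labelled right alone Mst1 was higher than dnPI3K by 0.78 (adjusted p = 0.0298), and on arrays labelled left the difference was -0.09 (adjusted p = 0.886). Over both atria the levels ran from dnPI3K and dnPI3K-Mst1 through Mst1 to Ntg, and among them the step to Ntg was the one that passed.

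Hrc, the histidine-rich calcium-binding protein that sits in the store and binds triadin, differed between all 4 genotypes in animal means. It read 8.17, 7.49, 8.07 and 8.08 in the dnPI3K-Mst1 animals, 8.54, 8.51, 8.64 and 8.60 in the Mst1 animals, 9.45, 9.64, 9.84 and 9.68 in the dnPI3K animals, and 10.16, 10.28, 10.27 and 10.33 in the Ntg animals. No 2 genotypes overlapped in these means, and the order was dnPI3K-Mst1, Mst1, dnPI3K and Ntg from low to high. Against Ntg the change was -2.31 ± 0.12 in dnPI3K-Mst1 (adjusted p = 4.09e-11), -1.69 ± 0.12 in Mst1 (adjusted p = 2.97e-09) and -0.61 ± 0.12 in dnPI3K (adjusted p = 0.00446). Without the 4 animals whose arrays stand apart the dnPI3K change was -0.52 and was not called (adjusted p = 0.119). It was also called on neither label alone (-0.63 on left arrays, adjusted p = 0.0713, and -0.58 on right arrays, adjusted p = 0.0879). The animals with both transgenes were lower than Mst1 by -0.62 ± 0.12 (adjusted p = 0.00501), a step of -0.95 on arrays labelled right (adjusted p = 0.0175) and of -0.29 on arrays labelled left, where it was not called (adjusted p = 0.643). They were lower than dnPI3K by -1.70 ± 0.12 (adjusted p = 6.32e-09), and Mst1 was lower than dnPI3K by -1.08 ± 0.12 (adjusted p = 1.4e-06). Non-additivity, taken as the change with both transgenes less the sum of both single changes, was -0.01 ± 0.17 on the log2 scale (interval -0.36 to 0.33), the mean of 0.35 on arrays labelled left and -0.37 on arrays labelled right, which passed on neither (adjusted p = 0.674 and 0.728).

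The promoters of these 2 buffers are shown because they belong to the genes with the largest changes. The RefSeq sequences (GRCm38.p6) run from 250 bases before to 50 bases after the start of the gene, 5′ to 3′ on the gene's strand, with Hrc at chr7:45335019-45335318 (plus strand) and Casq1 at chr1:172219846-172220145 (minus strand). Capitals mark matches of the motifs searched, which here are all E-boxes (CANNTG), the sequence bound by basic helix-loop-helix factors.
Hrc: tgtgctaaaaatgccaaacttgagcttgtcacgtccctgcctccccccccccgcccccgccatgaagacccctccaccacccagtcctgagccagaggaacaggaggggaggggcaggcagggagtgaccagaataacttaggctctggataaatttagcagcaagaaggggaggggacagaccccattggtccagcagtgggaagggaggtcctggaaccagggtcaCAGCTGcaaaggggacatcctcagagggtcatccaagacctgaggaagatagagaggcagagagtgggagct
Casq1: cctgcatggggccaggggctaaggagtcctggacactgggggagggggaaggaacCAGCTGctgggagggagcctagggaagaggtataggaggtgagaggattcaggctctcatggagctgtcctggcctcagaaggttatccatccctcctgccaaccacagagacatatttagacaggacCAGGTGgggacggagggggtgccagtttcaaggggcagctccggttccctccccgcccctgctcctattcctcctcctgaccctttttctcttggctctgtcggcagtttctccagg
Both hold the E-box CAGCTG, at 22 bases before the start in Hrc and 195 bases before it in Casq1.

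Of the pumps, Atp2a2 was lower in both genotypes with Mst1 and Atp2a1 in all 3 transgenic genotypes. Atp2a2, which encodes the SERCA pump of heart muscle, read 12.65, 12.63, 12.75 and 12.70 in the dnPI3K-Mst1 animals, 12.29, 12.75, 12.78 and 12.81 in the Mst1 animals, 12.99, 12.91, 13.003 and 12.83 in the dnPI3K animals, and 12.99, 13.02, 12.88 and 13.08 in the Ntg animals. All animals with Mst1 lay below all animals without it, and dnPI3K overlapped Ntg. The change against Ntg was -0.31 ± 0.09 in dnPI3K-Mst1 (adjusted p = 0.0149, and 0.0602 after quantile normalization) and -0.33 ± 0.09 in Mst1 (adjusted p = 0.01), where it was -0.21 without Mst1 1466 (adjusted p = 0.0135). In dnPI3K it was -0.06 (interval -0.25 to 0.13). Mst1 was lower than dnPI3K by -0.27 ± 0.09 (adjusted p = 0.0378, where 10% of all genes were called lower and 21.9% in either direction), but without Mst1 1466 the difference was -0.15 (adjusted p = 0.0795), and it was also not called without dnPI3K 1507, 1648 or 1660 (adjusted p between 0.0633 and 0.0975), after centring each array on its median (0.0527) or with no filter (0.0569). The difference of dnPI3K-Mst1 from dnPI3K was -0.25 (interval -0.44 to -0.06, adjusted p = 0.0604), and it was called without Mst1 1466, whose spread enters the fit (adjusted p = 0.0031), and when all 32 arrays were fitted with the animal as a block (adjusted p = 0.0147).

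Atp2a1, the SERCA pump of fast skeletal muscle, had a low signal and was lower in every transgenic genotype. It read 5.36, 5.42, 5.33 and 5.30 in the dnPI3K-Mst1 animals, 5.28, 5.41, 5.58 and 5.33 in the Mst1 animals, 5.63, 5.69, 5.74 and 6.02 in the dnPI3K animals, and 6.32, 6.23, 6.20 and 6.44 in the Ntg animals. The animals with Mst1 were lowest, dnPI3K lay between, and Ntg was highest with no overlap between these 3 levels. Atp2a1 changed against Ntg by -0.94 ± 0.09 in dnPI3K-Mst1 (1.93-fold lower, adjusted p = 1.21e-07), -0.90 ± 0.09 in Mst1 (1.86-fold lower, adjusted p = 3.07e-07) and -0.53 ± 0.09 in dnPI3K (1.44-fold lower, adjusted p = 0.00126). Atp2a1 was lower in dnPI3K-Mst1 than in dnPI3K by -0.42 ± 0.09 (adjusted p = 0.00195), where 8.8% of all genes were called lower and 21.6% in either direction, and lower in Mst1 than in dnPI3K by -0.37 ± 0.09 (adjusted p = 0.00487). Between dnPI3K-Mst1 and Mst1 the difference was -0.05 (interval -0.23 to 0.14).

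Atp2a1 and Casq1 are genes of skeletal muscle, so other skeletal muscle markers were measured beside them. Of 15 such markers 3 were below the filter in mean level, and over the 15 the mean level of an animal ranged from 5.50 to 5.61 in dnPI3K-Mst1, 5.54 to 5.69 in Mst1, 5.52 to 5.64 in dnPI3K and 5.59 to 5.74 in Ntg. Of the 12 tested, 2 were called higher and 3 lower in dnPI3K-Mst1 against Ntg, 2 higher and 2 lower in Mst1, and 0 higher and 1 lower in dnPI3K. These counts lie near the share of all genes called (16.4% higher and 14.2% lower, 12.6% and 14.2%, and 1.29% and 2.75% in the same comparisons), so no shift of the list is read from them. Eno3, the muscle enolase, was lower by -1.37 in dnPI3K-Mst1, -1.17 in Mst1 and -0.61 in dnPI3K, while Tnnt3, a fast troponin, was higher by 1.26 in dnPI3K-Mst1 and 1.07 in Mst1. Whether skeletal muscle in the dissected tissue has a part in the Atp2a1 and Casq1 differences was not tested.

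The pump inhibitor genes Pln and Sln were lower in the genotypes with Mst1. Pln read 12.24, 11.99, 12.22 and 12.08 in the dnPI3K-Mst1 animals, 12.23, 12.22, 12.40 and 12.35 in the Mst1 animals, 12.71, 12.80, 12.68 and 12.73 in the dnPI3K animals, and 12.59, 12.46, 12.62 and 12.75 in the Ntg animals. All animals with Mst1 lay below all animals without it. The change against Ntg was -0.47 ± 0.07 in dnPI3K-Mst1 (adjusted p = 5.75e-05) and -0.31 ± 0.07 in Mst1 (adjusted p = 0.00398), and in dnPI3K it was 0.12 (interval -0.03 to 0.28). The Mst1 change was called on neither label alone (-0.31 on left arrays, adjusted p = 0.0505, and -0.30 on right arrays, adjusted p = 0.0578). Pln was lower in dnPI3K-Mst1 than in dnPI3K by -0.60 ± 0.07 (adjusted p = 8.24e-06) and lower in Mst1 than in dnPI3K by -0.43 ± 0.07 (adjusted p = 0.000258). Its difference between dnPI3K-Mst1 and Mst1 was -0.17 (interval -0.32 to -0.01, adjusted p = 0.251).

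Sln had its lowest level where both transgenes were present. It read 8.04, 7.96, 8.12 and 7.98 in the dnPI3K-Mst1 animals, 8.36, 8.26, 8.44 and 8.17 in the Mst1 animals, 8.59, 8.54, 8.68 and 8.66 in the dnPI3K animals, and 8.72, 8.80, 8.60 and 8.83 in the Ntg animals. The animals of dnPI3K-Mst1, Mst1 and dnPI3K did not overlap each other, and dnPI3K overlapped Ntg. Sln changed against Ntg by -0.71 ± 0.08 in dnPI3K-Mst1 (1.64-fold lower, adjusted p = 7.53e-07) and -0.43 ± 0.08 in Mst1 (adjusted p = 0.000295), while in dnPI3K it was -0.12 (interval -0.28 to 0.04). Sln was lower in dnPI3K-Mst1 than in dnPI3K by -0.59 ± 0.08 (adjusted p = 1.52e-05) and lower in Mst1 than in dnPI3K by -0.31 ± 0.08 (adjusted p = 0.00646). Against Mst1 the difference of dnPI3K-Mst1 was -0.28 ± 0.08 (adjusted p = 0.0517), and it was called (adjusted p = 0.0267) when all 32 arrays were fitted with the animal as a block.

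The inhibitor's level minus the Atp2a2 level in the same animal follows whether inhibitor and pump changed by unequal amounts. The difference itself has no unit across probe sets, so its change against Ntg is given, a measure chosen after the levels were seen. For Sln it was lower in dnPI3K-Mst1 by -0.40, with -4.72 to -4.61 in dnPI3K-Mst1 animals and -4.27 to -4.22 in Ntg animals, which did not overlap. An exact two-sided permutation test gave p = 0.0286, the smallest that 4 against 4 animals allow. Over 6 such tests a single separated measure cannot fall under 0.171, so that adjusted value was set by the design. For Sln the change was -0.10 in Mst1 and -0.06 in dnPI3K, and for Pln it was -0.17 in dnPI3K-Mst1, 0.03 in Mst1 and 0.18 in dnPI3K, with adjusted exact p of 0.229 to 0.83. The Mst1 values turn on single animals. Without Mst1 1466 Sln changed by -0.24, with all 3 remaining animals (-4.64 to -4.34) below every Ntg animal, and Pln by -0.08, while without Mst1 1840 Sln changed by -0.00 and without Ntg 1657 Pln by -0.03.

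The promoters of Atp2a1, called lower in all 3 transgenic genotypes, and Pln, called lower in those with Mst1, are given in the same form and orientation. Atp2a1 lies at chr7:126463024-126463323 (minus strand) and Pln at chr10:53337436-53337735 (plus strand). The start used for the Atp2a1 window lies a little inside the gene, whose span begins at 126463103 on that strand. Capitals mark an E-box in Atp2a1, and E-boxes and a GATA site (AGATAA on the opposite strand) in Pln.
Atp2a1: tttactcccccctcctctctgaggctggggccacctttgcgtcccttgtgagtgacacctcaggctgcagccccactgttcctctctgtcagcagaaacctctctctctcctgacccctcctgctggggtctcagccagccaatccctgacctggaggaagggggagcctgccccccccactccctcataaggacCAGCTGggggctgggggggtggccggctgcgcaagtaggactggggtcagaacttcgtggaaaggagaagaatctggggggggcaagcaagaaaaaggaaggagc
Pln: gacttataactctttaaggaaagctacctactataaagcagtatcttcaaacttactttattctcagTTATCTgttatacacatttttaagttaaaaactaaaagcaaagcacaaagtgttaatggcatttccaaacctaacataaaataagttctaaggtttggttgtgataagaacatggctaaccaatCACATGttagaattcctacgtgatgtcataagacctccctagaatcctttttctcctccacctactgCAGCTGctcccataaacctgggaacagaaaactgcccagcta
RefSeq promoters were at hand for 7 of the 10 genes (Trdn, Atp2a2 and Sln are named only). Both strands were searched for CANNTG, for its form CAGCTG, chosen after the promoters were read, for the TEAD motif CATTCC, the oestrogen-related receptor motif AAGGTCA, the GATA motif AGATAA, and the MEF2 and SRF (CArG) motifs. CAGCTG matches are also CANNTG matches. CAGCTG stood in 5 of 7 (Jph2, Casq1, Hrc, Atp2a1 and Pln) and in 16.3% of all 32851 promoters of this length. CANNTG stood in all 7 and in 72.3% of all promoters, AAGGTCA in Jph2 and 4.72%, AGATAA in Pln and 11.2%, and the MEF2 motif in Casq2 and 3.19%. CATTCC (14.7% of all promoters) and the CArG motif (1.63%) matched in none of the 7 windows.

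**Figure D3:**
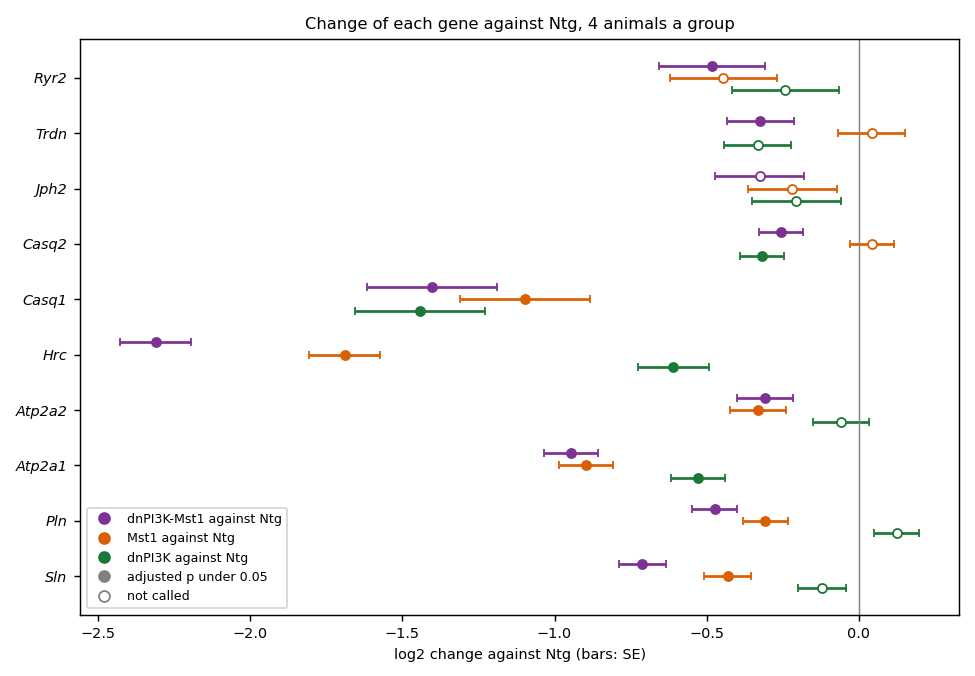
Change of each of the 10 genes against Ntg (log2, point and SE of 4 against 4 animals) in dnPI3K-Mst1, Mst1 and dnPI3K, with filled points at an adjusted p under 0.05. Hrc moves furthest in dnPI3K-Mst1 (-2.31) and Mst1 (-1.69), and Casq1 furthest in dnPI3K (-1.44).

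Set side by side, Pln, Sln and Atp2a2 were called lower against Ntg in dnPI3K-Mst1 and Mst1, and Casq2 in dnPI3K-Mst1 and dnPI3K. The test of Mst1 against dnPI3K, which shares no control animals, called 7 of the 10: Hrc, Pln, Atp2a1, Sln and Atp2a2 were lower in Mst1, and Trdn and Casq2 were higher in Mst1. In that test 10% of all genes were called lower and 11.8% higher. In dnPI3K-Mst1 against dnPI3K 4 of 10 were lower (Hrc, Pln, Sln and Atp2a1; 8.8% of all genes), and in dnPI3K-Mst1 against Mst1 2 of 10 (Hrc and Casq2; 0.848% of all genes). Of the 32 calls over the 6 comparisons, all had the same direction on left and right labels, 16 passed on left arrays alone and 20 on right arrays alone, 13 on both and 9 on neither, with 1 array per animal in place of 2. By the marker Bmp10, described below, a label held the same atrium in all dnPI3K-Mst1 and all dnPI3K animals. In Ntg it did not (2 animals each way), nor in Mst1 (3 and 1). Comparisons with Ntg or Mst1 on a single label therefore mix atria, and genotype and atrium cannot be told apart in their size. The non-additivity term passed for 0 of 10 genes (0.513% of all genes in either direction), and at an unadjusted p under 0.05 stood Atp2a1 with 0.48 (adjusted p = 0.0954), Casq1 with 1.14 (adjusted p = 0.0993) and Pln with -0.29 (adjusted p = 0.274). Positive values there mean that dnPI3K-Mst1 was higher than the sum of the 2 single changes would give. Casq1 passed without dnPI3K-Mst1 1647 (1.39, adjusted p = 0.00912) or Ntg 1834 (1.31, adjusted p = 0.0416), and Atp2a1 passed without dnPI3K 3241 (0.56, adjusted p = 0.0295).

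The comparison of the atria rests on side labels that conflict with a marker. Bmp10, a gene known to be restricted to the right atrium in the adult mouse heart, was high on 1 array of every animal (11.4 to 12.8) and low on the other (3.77 to 6.64). It was higher on the array labelled left in 13 animals (4 dnPI3K-Mst1, 3 Mst1, 4 dnPI3K and 2 Ntg) and on the array labelled right in 3 (Mst1 1839, Ntg 1301 and Ntg 1662). Sides are given as labelled, and no array was moved. Over the 4 genotypes 0 of the 10 genes passed for labelled right minus labelled left (0.00657% of all genes, with limma on within-animal differences), and at an unadjusted p under 0.05 stood Casq1 (-0.31, adjusted p = 0.126) and Hrc (-0.20, adjusted p = 0.444).

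By genotype, 1 gene passed. In dnPI3K, Casq1 read 6.79, 6.48, 6.48 and 5.99 on the arrays labelled right, against 6.95, 7.56, 7.49 and 7.16 on those labelled left, lower on the right label in 4 of 4 animals. The difference was -0.85 ± 0.16 (adjusted p = 0.0152, where 0.999% of all genes passed in either direction), and it was not called without 1648, 1660 or 3241 (adjusted p between 0.0718 and 0.121) or when the animal was left out of the model as a block (adjusted p = 0.117). In the other genotypes none of the 10 passed, with 0.0131% of all genes called in dnPI3K-Mst1 and 0% in Mst1 and Ntg. In Ntg Bmp10 was higher on the left label in 2 animals and on the right label in the other 2, and in Mst1 in 3 and 1. A difference that follows Bmp10 therefore cancels in the labelled difference of Ntg and is weakened in that of Mst1. The absence of calls in Ntg says nothing about the atria. Without the 3 animals whose Bmp10 ran the other way, none of the 10 passed in Mst1 (limma, lowest adjusted p = 0.465, Ryr2), where 1.09% of all genes did. The difference of Casq1 between genotypes did not pass either (interaction, unadjusted p = 0.00302, adjusted p = 0.628).

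Hrc had the other large difference between atria. In dnPI3K-Mst1 it read 7.75, 7.10, 7.92 and 7.78 on the arrays labelled right, against 8.58, 7.88, 8.22 and 8.39 on those labelled left, lower on the right label in 4 of 4 animals (-0.63 ± 0.16, adjusted p = 0.24). In Ntg animals 1301, 1657, 1662 and 1834 it read 9.85, 10.60, 9.93 and 10.40 on the right label, against 10.48, 9.96, 10.62 and 10.26 on the left label. In Ntg the side labels crossed, but in each animal Hrc was lower on the array with more Bmp10, at 9.85 to 10.26, against 10.40 to 10.62 on the other array. In dnPI3K-Mst1 it was higher on the array with more Bmp10 in each animal. Without the 3 animals whose Bmp10 ran the other way, an alternative chosen after Bmp10 was seen, the difference in dnPI3K-Mst1 was called (-0.63 ± 0.11, adjusted p = 0.00358), and so was that of Casq1 in dnPI3K (-0.85, adjusted p = 0.0032). In that set the difference of Hrc between genotypes also passed (F = 10.7, adjusted p = 0.0317, where 0.94% of all genes passed), with labelled right minus left at 0.40 in the 2 Ntg animals that remained.

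**Figure D4:**
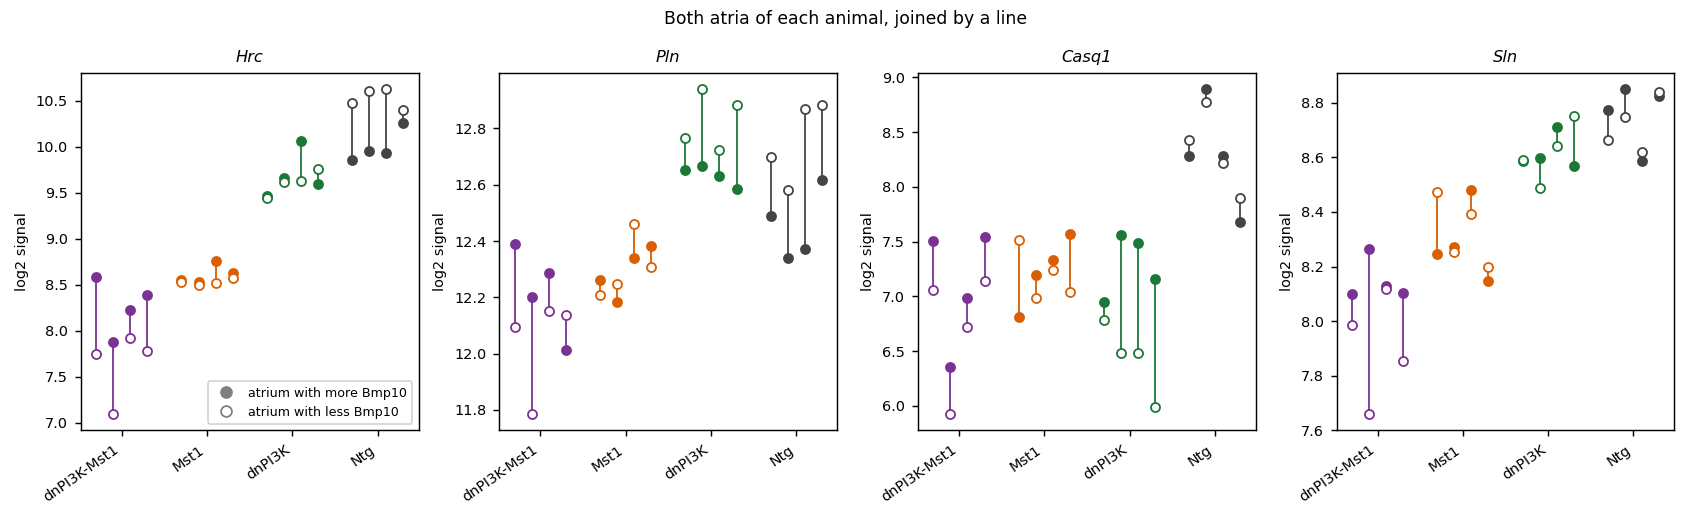
Both atria of each animal for Hrc, Pln, Casq1 and Sln (log2 signal), joined by a line, with the atrium of higher Bmp10 filled and the other open. In Ntg the filled Hrc points lie below the open ones in 4 of 4 animals, and in dnPI3K-Mst1 above them in 4 of 4.

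Signs against Bmp10 were counted for all 10 genes as a description, without a test, with a difference of any size counted. In Ntg 6 genes ran opposite to Bmp10 in 4 of 4 animals (Ryr2, Jph2, Casq2, Hrc, Atp2a1 and Pln), where 12.5% of all genes did, and 0 ran with it in 4 of 4 (13% of all genes). In dnPI3K-Mst1 4 genes ran with Bmp10 in 4 of 4 animals (Jph2, Casq1, Hrc and Sln; 7.78% of all genes) and 0 opposite to it (7.56%). In Mst1 Ryr2 ran opposite (14.8% of all genes), Atp2a2 did so by sign alone, with differences of -0.0008 and 0.0003 in animals 1839 and 1840, and Hrc ran with it (5.49%), and in dnPI3K Pln ran opposite (12.2%) and Casq1 with it (6.27%). Over all 16 animals Casq1 ran with Bmp10 in 13 (at least 13 in 3.89% of all genes) and Hrc in 11 (at least 11 in 12.5%), and Ryr2, Casq2 and Pln ran opposite to it in 11 each (at least 11 in 20.2%).

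Other genes of the calcium pathway are read against the share of all genes called against Ntg, which was 16.4% higher and 14.2% lower in dnPI3K-Mst1, 12.6% and 14.2% in Mst1, and 1.29% and 2.75% in dnPI3K. Of 22 other genes of the release complex and the junction, 5 were higher and 5 lower in dnPI3K-Mst1 against Ntg, 5 higher and 3 lower in Mst1, and 0 higher and 1 lower in dnPI3K, with medians of -0.08, -0.03 and 0.02, counts not far from those shares. Ryr3, the isoform of the release channel that is minor in heart, was higher by 1.21 ± 0.29 in dnPI3K-Mst1 (adjusted p = 0.00336) and 1.75 ± 0.29 in Mst1 (adjusted p = 0.000131). Sri, a calcium-binding protein that attaches to the release channel, was higher by 0.38 and 0.28 in the same comparisons. Cmya5, a large protein that positions the junction at the Z-disc, was lower by -1.20 and -0.98, and Ank2, an anchor of membrane transporters, by -0.49 and -0.52. S100a1, a calcium sensor that binds both Ryr2 and SERCA, was lower in dnPI3K by -0.37 (adjusted p = 0.0168) and in dnPI3K-Mst1 by -0.32 (adjusted p = 0.0076).

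Of 17 other genes of pumps, pump regulators, buffers and store entry, 7 were higher and 5 lower in dnPI3K-Mst1 against Ntg, 4 higher and 3 lower in Mst1, and 0 higher and 1 lower in dnPI3K, with medians of 0.22, 0.10 and -0.00, and the dnPI3K-Mst1 counts stand above the 16.4% and 14.2% of all genes. Srl, a calcium-binding protein of the store's lumen, was lower by -0.90 ± 0.14 in dnPI3K-Mst1 and -0.62 ± 0.14 in Mst1. Mrln, another micropeptide that inhibits the pump, was lower by -0.51 and -0.40, the same direction as Pln and Sln. Rcn3, a calcium-binding protein of the endoplasmic reticulum, was higher by 1.15 and 1.02, and Stim1, which senses an emptied store, was higher by 0.47 in dnPI3K-Mst1. Hax1, a partner of Pln, was higher by 0.49 in Mst1. Ppp1r1a, the phosphatase inhibitor that preserves phosphorylated Pln, was lower by -0.35 in dnPI3K (adjusted p = 0.0116) and by -0.23 in dnPI3K-Mst1 (adjusted p = 0.0257).

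Of 20 genes of calcium extrusion and calcium-dependent signalling, 3 were higher and 5 lower in dnPI3K-Mst1 against Ntg, 0 higher and 3 lower in Mst1, and 0 higher and 2 lower in dnPI3K, with medians of -0.11, -0.04 and -0.09. Of these, the 3 higher in dnPI3K-Mst1 and the 3 lower in Mst1 are at the share of all genes (16.4% and 14.2%). Atp2b2, a calcium pump of the surface membrane, was lower by -0.59 in dnPI3K-Mst1, -0.63 in Mst1 and -0.46 in dnPI3K. Its non-additivity term passed (0.49 ± 0.11, adjusted p = 0.0354). Pde4d, a phosphodiesterase that limits cyclic AMP, was lower by -0.46 in dnPI3K-Mst1 and -0.60 in Mst1, and Camk2b, a subunit of the calcium-dependent kinase, by -0.21 in dnPI3K-Mst1 and -0.51 in dnPI3K.

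Over the 16 animal means, each gene has others that follow it closely, and the correlations are given as a description, since the animals share 4 genotypes. Hrc ran with the respiratory chain genes Cox7a1 (r = 0.99) and Ndufa8 (r = 0.988) and with Ptcd3 (r = 0.987), a mitochondrial ribosome protein. Atp2a1 ran with Egf (r = 0.978), Smco1 (r = 0.972) and the muscle enolase Eno3 (r = 0.961), Sln with Hopx (r = 0.961) and Dsc2 (r = 0.953), and Pln with the atrial potassium channel gene Kcnj3 (r = 0.946), Mylk3 (r = 0.946) and Idh2 (r = 0.936). Ryr2 was closest to Erc1 (r = 0.973), Atp2a2 to Ptpru (r = 0.959), Casq2 to Cryab (r = 0.935), Jph2 to Atg4d (r = 0.934), Casq1 to Mrps34 (r = 0.926) and Trdn to Hmgn5 (r = 0.9). The highest correlation for Trdn was thus the lowest of the 10 genes.

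Markers of the cell types in the atrium were counted against the same shares of all genes, 16.4% higher and 14.2% lower in dnPI3K-Mst1, 12.6% and 14.2% in Mst1, and 1.29% and 2.75% in dnPI3K. Of 13 cardiac myocyte markers 1 was higher and 5 lower in dnPI3K-Mst1 against Ntg, 1 higher and 3 lower in Mst1 and 0 in dnPI3K, with a mean level per animal of 11.2 to 11.6 in dnPI3K-Mst1, 11.2 to 11.6 in Mst1, 11.5 to 11.6 in dnPI3K and 11.5 to 11.7 in Ntg. The troponin gene Tnni3 was lower by -0.83 in dnPI3K-Mst1 and -0.73 in Mst1, and Des, which encodes desmin, was higher by 0.81 and 1.00. Of 10 atrial myocyte markers 1 was higher and 7 lower in dnPI3K-Mst1, 0 higher and 6 lower in Mst1, and 0 higher and 1 lower in dnPI3K, with a mean level of 10.2 to 10.4, 10.2 to 10.3, 10.6 to 10.7 and 10.7 to 10.8 in dnPI3K-Mst1, Mst1, dnPI3K and Ntg. Of 9 fibroblast markers 7 were higher in dnPI3K-Mst1, 2 in Mst1 and 1 in dnPI3K, none lower, with a mean level of 10.2 to 10.7 in dnPI3K-Mst1, 9.92 to 10.03 in Mst1, 9.49 to 10.06 in dnPI3K and 9.45 to 10.03 in Ntg. Furthest above those shares stood the atrial myocyte markers called lower and the fibroblast markers called higher in dnPI3K-Mst1. The part of these marker differences in the calcium gene differences was not tested.

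Less abundant cell types were examined against Ntg in the same way, where 30.6% of all genes were called in either direction in dnPI3K-Mst1, 26.8% in Mst1 and 4.05% in dnPI3K, and several of these small counts lie near that share. Of 6 ventricular markers 2 were lower in dnPI3K-Mst1, 2 in Mst1 and 0 in dnPI3K. Of 8 endothelial markers 3 were higher and 1 lower in dnPI3K-Mst1, 1 higher and 4 lower in Mst1, and 0 were called in dnPI3K. Of 7 smooth muscle and pericyte markers 3 were higher and 1 lower in dnPI3K-Mst1, 3 higher and 3 lower in Mst1, and 0 were called in dnPI3K. Of 8 macrophage markers 3 were higher in dnPI3K-Mst1, 1 was lower in Mst1 and 0 were called in dnPI3K. Of 5 adipocyte markers 1 was lower in dnPI3K-Mst1 and 2 in Mst1, of 6 mesothelial markers 3 were lower in Mst1, and of 2 erythroid markers 1 was lower in dnPI3K-Mst1, with 0 called otherwise. Adipocyte markers, 2 of 7 of them below the filter, had a mean level of 5.23 to 6.45 in dnPI3K-Mst1, 5.16 to 5.62 in Mst1, 5.42 to 5.62 in dnPI3K and 5.46 to 6.73 in Ntg.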

How the data were processed

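Biotinylated cDNA from 100 ng of total RNA per atrium was hybridised to Affymetrix Mouse Gene 1.0 ST arrays, per the labels' protocols. The log2 probe set signals were analysed as deposited, and the submitters' processing notes name Affymetrix Expression Console and PLIER, with version, scaling and filters not given in the sources used here. The logarithm's base is inferred from the range of the values (1.16 to 14.08).

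Of 35512 probe sets 21789 had 1 gene symbol, 1621 several and 12102 none in the platform annotation; those with 1 were used, and the brightest represented a gene. Genes with a mean under 4.48, the 30th percentile of probe sets, were left out, which kept 15219. Animal means were fitted over 4 genotypes with limma 3.58.1 (R 4.3.3; lmFit, eBayes with trend), with SE and 95% intervals from the fit. Within-animal differences, labelled right minus labelled left, were fitted likewise, with the trend over a gene's mean level. Adjustment followed Benjamini-Hochberg across the whole set of tested genes, with calls at an adjusted p under 0.05. Every p-value rests on how far these animals differed from each other. Both arrays of an animal carry its number; their deviations from group means correlated at a median of 0.05 (-0.42 to 0.44), with 7 of 16 over 0.1. The genes and lists were chosen with earlier results of these data known. Named besides the 10 genes are a selection of the 3 most correlated genes of each and of the called genes per list. Bmp10, Stk4 and Pik3ca are named as checks of the labels. The called genes named are not always the largest changes of their list. Larger ones left out include Fsd2 (-0.94) of the release complex list and Ppp1r3a (-1.03) of the pump and buffer list, both in dnPI3K-Mst1 against Ntg. On simulated data with 200 changed genes, changes of 0.5, 1 and 2 log2 were recovered at 81%, 99% and 100% in Mst1 against Ntg (14, 7 and 11 false calls of 15219 genes), and at 93.5%, 99.5% and 100% for the sides over 4 genotypes (13, 9 and 8). The simulated noise was drawn independently for each gene, while in the data 4084 genes were called in Mst1 against Ntg. Changes under 0.5, such as those of Casq2, Trdn, Jph2, Atp2a2 and Pln against Ntg, were not simulated. The simulated side change had the same direction in all 16 animals. On the labelled sides Bmp10 ran the other way in 3 animals, so these recoveries do not apply to a difference that follows it.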

Additional observations from a re-analysis of the deposited data

Results flagged for a closer look

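Single animals far from the other 3 of their genotype were looked for in 120 groups (10 genes, 4 genotypes, and the animal means, left arrays and right arrays), with Dixon's test at 95%. It found 13, where chance gives about 1 in 20. Mst1 animal 1466, whose left array stands apart, was lowest of its genotype for Ryr2 with a mean of 10.32 (the others 11.24 to 11.38), for Atp2a2 with a mean of 12.29 (the others 12.75 to 12.81) and 12.40 on its right array, and for Jph2 with a mean of 8.13 (the others 8.74 to 8.78), 7.94 on its left and 8.33 on its right array. On its right array Atp2a2 and Jph2 were flagged, while Ryr2 (10.47 there) was flagged in the mean only. That array had a mean correlation with the other arrays of 0.974 and the lowest median of all arrays (5.51). Whether array quality has a part in these low values was not tested.

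In dnPI3K-Mst1, animal 1647 was lowest for Hrc with a mean of 7.49 (the others 8.07 to 8.17) and for Pln on its right array with 11.79 (the others 12.09 to 12.15). The remaining 5 were Jph2 in dnPI3K animal 3241 (mean 8.18, lowest), Jph2 on the left array of Ntg animal 1662 (9.20, highest), Trdn on the left array of Mst1 animal 1840 (10.21, lowest), and Casq2 in dnPI3K animal 1507 (mean 10.78, highest) and on the right array of dnPI3K animal 1660 (10.59, lowest).

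The difference of Hrc between the labelled sides differed between genotypes with an adjusted p of 0.0317 (limma) without the 3 animals whose Bmp10 runs opposite to the other 13. With all 16 animals its unadjusted p was 0.0423 and 0 of the 10 genes passed.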

How the results depend on the processing

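Over 1820 values of the 10 genes in genotype comparisons, recomputed under the alternatives, 0 called values changed sign, 59 of 832 called values lost the call, 27 gained one, and 70 values called in neither fit changed sign (102 for the sides). The number of the 10 genes called moved by over 1.5 times as follows; the cause was not tested unless fewer arrays show it. Array weights gave 4 for dnPI3K-Mst1 against Mst1 (2 as reported), 2 for non-additivity (Casq1 and Atp2a1), and 1 each for the sides over 4 genotypes (Casq1) and in dnPI3K-Mst1 (Hrc). Arrays labelled left gave 5 for dnPI3K-Mst1 against Ntg, 0 for dnPI3K against Ntg, 0 for dnPI3K-Mst1 against Mst1 and 3 for Mst1 against dnPI3K; arrays labelled right gave 2, 1 and 4 for the last 3. Leaving out 1 animal in turn gave 1 to 4 for dnPI3K-Mst1 against Mst1, 0 to 1 for non-additivity and 0 to 1 for the sides in dnPI3K. Side differences in Ntg were called for 3 genes (Trdn, Jph2 and Hrc) when only the 3 animals with more Bmp10 on the right label remained, 2 of them Ntg, a fit that called 700 of all genes (4.6%) in Ntg and 121 in the single Mst1 animal; without those 3 animals, a set chosen after seeing the data, 1 gene was called in dnPI3K-Mst1 and 1 between genotypes, both Hrc.

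With the animal as replicate block over 32 arrays (consensus correlation 0.12), Ryr2 in Mst1 against Ntg (adjusted p = 0.018), Sln in dnPI3K-Mst1 against Mst1 (0.0267) and Atp2a2 in dnPI3K-Mst1 against dnPI3K (0.0147) gained calls, and no other call of the 10 genes changed. With no replicate block, 0 genes were called for the sides in dnPI3K.

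Over all genes, dnPI3K against Ntg had 616 called, with 945 under array weights, 278 without the animals standing apart, 105 and 339 on left and right labels, and 378 to 1013 without 1 animal (highest without Mst1 1466, lowest without Ntg 1662). For dnPI3K-Mst1 against Mst1 the 532 became 1686, 903, 74, 102 and 249 to 765 in the same order. On left labels Mst1 against Ntg had 2129 (4084 as reported), dnPI3K-Mst1 against Ntg 2417 (4658), dnPI3K-Mst1 against dnPI3K 1763 (3292; 2187 on right labels) and Mst1 against dnPI3K 1694 (3327). Non-additivity (78) had 358 under array weights, 0 and 24 on left and right labels, 120 with the block and 54 to 207 without 1 animal. The sides over 4 genotypes (1 gene) had 6 after quantile normalization, 209 under array weights, 86 with no block, 828 without the 3 animals and 0 to 333 without 1 animal, the sides in dnPI3K (152) had 603 without the 3 animals, 3 without the animals standing apart and 19 to 270 without 1 animal, and the sides in dnPI3K-Mst1 (2) 168 under array weights, 28 with no block and 196 without the 3 animals. The sides in Mst1 and Ntg and the interaction (0 genes each) had 166, 165 and 143 without the 3 animals. No detection values were used, so how far low signals such as Atp2a1 stood above background was not measured.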
